A study of Mus musculus with 6 samples.

Results

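Gm12160 is a mouse long intergenic noncoding RNA gene whose unique molecular identifiers (UMIs, the tags that mark single captured transcripts) came almost wholly from SCA1 mice. It is 1 of the 32286 genes listed for each nucleus. It was chosen because of this difference between genotypes, seen across cell types. Its levels in SCA1 and wild-type (WT) mice are thus described here without a test. Whole cerebella of 3 *Pcp2-ATXN1[82Q]* mice (SCA1 mice), which carry mutant human *ATXN1* driven by the *Pcp2* promoter of Purkinje cells, and of 3 WT littermates had been used for single nuclei RNA sequencing, with 1 library per mouse. All mice were 12 weeks old and the line had been backcrossed to C57BL/6. Nuclei carry the authors' SingleR labels, of which those of granule neurons, oligodendrocytes (OL), Purkinje cells (PCs), velate astrocytes (VA) and Bergmann glia (BG) are named by cell type below, and the others as labelled. Over these 5 types, 19 marker genes were checked, of which 12 were highest in their own label among the 24 labels and 19 were among the 3 highest there.

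Long intergenic noncoding RNAs are transcribed and spliced like messenger RNAs, lie between protein-coding genes and hold no recognised protein-coding frame. Many stay in the nucleus, where sequencing of nuclei captures them together with unspliced RNA, and many are found in few cell types. Spinocerebellar ataxia type 1 is a dominantly inherited disease in which a lengthened glutamine tract in ATXN1 impairs PCs. No function of Gm12160 is assumed here.

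In the annotation of the mouse genome GRCm38 (mm10), Gm12160 (ENSMUSG00000087089) lies on the plus strand at chr11:45160943-45213656 and has 2 exons. The intron between them measures 52372 bp, against 342 bp for the spliced transcript. Because intronic reads were counted by the authors too, spliced and unspliced RNA cannot be told apart in these counts.

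The number of nuclei per library ran from 3354 to 10897 and that of UMIs from 18916647 to 98366627, with the shallowest nuclei in WT mouse 2, where the median nucleus held 2246.5 UMIs against 4496 to 7253 in the others. Of 45219 barcodes, 254 occurred in 2 libraries and 0 in more. SCA1 mouse 1 and WT mouse 1 fall in the lower of 2 ranges of library numbers and were taken as batch 1. *Xist*, the X-inactivation RNA of female cells, was counted 6 to 21 times per mouse, and *Ddx3y*, a Y-linked gene, 1107 to 5820 times, in SCA1 and WT mice alike. Human *ATXN1* was counted 57, 60 and 60 times in SCA1 mice 1, 2 and 3, and 37, 17 and 15 times in WT mice 1, 2 and 3. Within PCs it was counted 12, 15 and 19 times in the SCA1 mice and 0 times in each WT mouse, so that the genotypes were separate in the cells that carry the transgene's promoter activity. In both genotypes most human *ATXN1* UMIs lay in granule neurons, with 112 of 177 in SCA1 and 58 of 69 in WT mice. These neurons also held most UMIs of all genes, 137449765 of 193091134 in SCA1 and 105728165 of 145179819 in WT mice. The level of human *ATXN1* in them was 0.504, 1.15 and 1.10 CPM in SCA1 mice 1, 2 and 3. It overlapped with 0.373, 1.08 and 0.777 CPM in the WT mice. In PCs it was 4.24, 12.7 and 11.1 CPM in the SCA1 mice. The paper reports mutant human *ATXN1* in PCs only. Over all nuclei the genotypes overlapped in its level, with 0.551, 1.37 and 1.21 CPM in SCA1 and 0.367, 0.870 and 0.587 CPM in WT mice.

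Gm12160 was counted 433, 402 and 406 times in SCA1 mice 1, 2 and 3, and 5, 1 and 2 times in WT mice 1, 2 and 3. Every SCA1 mouse lay far above every WT mouse, and 99.4% of all 1249 UMIs came from SCA1 mice. As counts per 1000000 UMIs (CPM, scaled by TMM factors over all nuclei of a mouse), the levels were 4.19, 9.19 and 8.15 in SCA1 mice 1, 2 and 3 (mean 7.18 ± 2.64, SD, n = 3). In WT mice 1, 2 and 3 they were 0.0496, 0.0512 and 0.0783 CPM (mean 0.0597 ± 0.0161, SD, n = 3). Pooled over the mice, the level was 117 times higher in SCA1. The limit that a count of 0 allows is 3 UMIs, or 0.0207 CPM for the 3 WT libraries together, and the counts of WT mice 2 and 3 lay under 3 UMIs each. Whether the 8 WT UMIs stem from expression was not tested. Human *ATXN1*, which WT mice lack, gave 69 UMIs in the same libraries. Their source was not tested either, so that they set no background level for Gm12160.

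The 8 WT UMIs came from 8 different nuclei. Of these, 6 were granule neurons, 1 was an OL and 1 carried the label Pvalb-Nefh, a class of GABAergic interneurons. None of the 8 had a barcode that also occurred in an SCA1 library, and in each the label was also the main label of its cluster. With 8 of 20527 nuclei, the share of WT nuclei with a UMI was 0.039% (95% exact binomial interval 0.0168 to 0.0768%), against 1139 of 24946 nuclei or 4.57% (4.31 to 4.83%) in SCA1. These intervals cover counting error only. In SCA1 mice 1, 2 and 3 the share was 3.71%, 5.06% and 5.41%, and no nucleus held more than 4 UMIs. After thinning every nucleus to 3000 UMIs, 1.19%, 3.08% and 2.22% of SCA1 nuclei kept a UMI, against 0%, 0% and 0.0628% of WT nuclei, with 4784 of the nuclei of WT mouse 2 too shallow to be used.

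**Figure D1:**
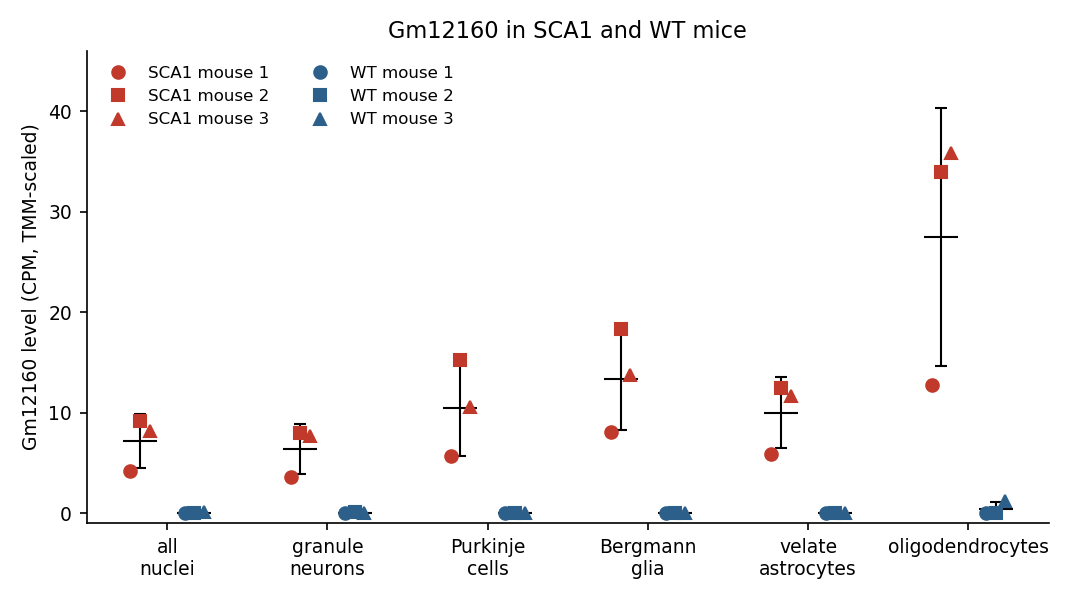
Gm12160 level (CPM, TMM-scaled within each group of nuclei) in each mouse, for all nuclei and 5 cell types. Points are mice, horizontal marks the mean of 3 mice and bars the SD. All SCA1 points lie above all WT points in each group, and SCA1 mouse 1 is the lowest SCA1 point in each.

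The difference between genotypes was present in each of the 5 cell types. Gm12160 was chosen because its UMIs came from SCA1 mice across cell types, so that this and the folds below follow from the choice. In granule neurons, the most numerous neurons of the cerebellum, Gm12160 was counted 261, 251 and 270 times in SCA1 mice 1, 2 and 3 and 4, 1 and 1 times in the WT mice. In PCs, the neurons that carry the cortex's output, SCA1 mice had 16, 18 and 18 UMIs, and 0 of 146 WT nuclei held a UMI, which allows a share of up to 2.05%. In BG, the astrocytes that ensheathe PC dendrites, the SCA1 mice had 29, 26 and 19 UMIs, and 0 of 547 WT nuclei held one, which allows up to 0.548%. In VA, the astrocytes of the granule layer, there were 16, 14 and 11 UMIs in SCA1 mice and 0 in 430 WT nuclei, which allows up to 0.698%. In OL, the myelin-forming glia, SCA1 mice had 39, 45 and 52 UMIs and WT mice 0, 0 and 1. No cell type thus had overlapping genotypes. Against the 3 UMIs that a count of 0 allows in the pooled WT nuclei, the SCA1 level was at least 16.8-fold higher in PCs, at least 18.3-fold higher in BG and at least 8.84-fold higher in VA. Over all nuclei Gm12160 had the highest ratio of the lowest SCA1 to the highest WT mouse among 19625 genes tested, with 27.3 where a mouse under 3 UMIs was taken as 3 UMIs. Since Gm12160 was chosen on this contrast, its place at the top follows from the choice and is a description. The other genes were far below it. The next were *Galr1*, a galanin receptor gene, with a ratio of 2.47 and *Hrk*, a pro-apoptotic BCL2 family gene, with 2.06, followed by *Col6a4* with 1.98, *Anxa10* with 1.95 and *Ccn5* with 1.92. In the opposite direction the ratio of the lowest WT to the highest SCA1 mouse reached 1.87 for Gm50271, 1.83 for 1700047F07Rik, 1.80 for *Col18a1*, 1.78 for *Fcna* and 1.71 for *Nup62cl*.

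**Figure D2:**
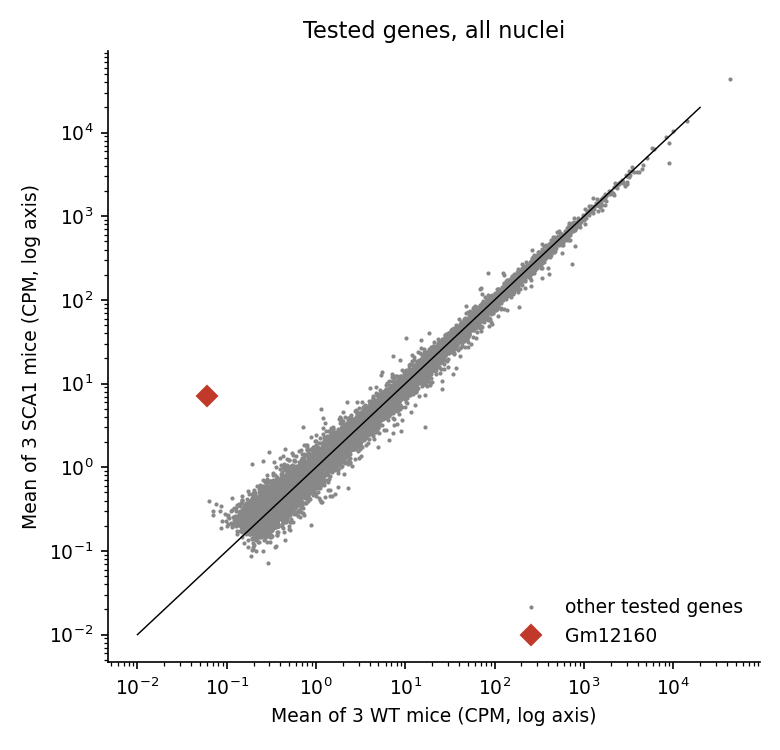
Mean level of each of the 19625 tested genes in the 3 SCA1 mice against the 3 WT mice, over all nuclei (CPM, both axes logarithmic, the line marks equal levels). Gm12160, at 7.18 CPM in SCA1 and 0.0597 CPM in WT, lies apart from the cloud of genes along the line.

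SCA1 mouse 1 had a lower level than SCA1 mice 2 and 3 in all nuclei and in each of the 5 cell types. Its level over all nuclei was 0.483 times the mean of the other two, a log2 ratio of -1.05. Across 19617 tested genes the middle 90% of this ratio ran from -1.70 to 0.87 with a median near 0, and Gm12160 stood at percentile 9.13. SCA1 mouse 1 is the only SCA1 mouse of batch 1, so that mouse and batch cannot be told apart. In PCs human *ATXN1* stood in the same order, at 4.24, 12.7 and 11.1 CPM in SCA1 mice 1, 2 and 3. Over all nuclei it also stood in this order in WT mice 1, 2 and 3, which lack the transgene, at 0.367, 0.870 and 0.587 CPM. Gm12160 itself had another order in OL, at 12.7, 33.9 and 35.9 CPM in SCA1 mice 1, 2 and 3. Whether its level follows that of human *ATXN1* between mice was not tested.

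Within SCA1 mice, the choice of Gm12160 did not use the level of a cell type relative to another, so these differences could be tested. Counts of 12 labels with at least 20 nuclei in each SCA1 mouse were summed per mouse and fitted in edgeR's quasi-likelihood model with mouse and label as terms over 14561 genes, and adjusted p are by Benjamini-Hochberg over all of them. OL had the highest level, with 12.7, 33.4 and 37.8 CPM in SCA1 mice 1, 2 and 3 (mean 28.0 ± 13.4, SD, n = 3; TMM factors set over all labels together). Granule neurons had 3.70, 8.37 and 8.15 CPM (mean 6.74 ± 2.63, SD, n = 3). OL thus exceeded granule neurons in every mouse, 3.43, 3.99 and 4.64 times. The log2 fold change was 2.01 (SE 0.242, edgeR adjusted p 3.71e-08). In this comparison 42.2% of the genes tested were past the threshold, since cell types differ in many genes.

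BG and PCs also exceeded granule neurons in every mouse. BG had 8.42, 18.9 and 15.5 CPM, with a log2 fold change of 1.09 against granule neurons (SE 0.258, edgeR adjusted p 0.000804; 48% of genes called). PCs had 7.59, 20.8 and 15.4 CPM, with a log2 fold change of 1.08 (SE 0.275, edgeR adjusted p 0.00148; 51.8% of genes called). Lgi2, a label of GABAergic neurons, had 10.3, 19.7 and 17.3 CPM and a log2 fold change of 1.29 (SE 0.291, edgeR adjusted p 0.000607; 42.1% of genes called). VA had 5.70, 11.9 and 11.9 CPM, and although each mouse lay above its own granule neurons, the log2 fold change of 0.54 (SE 0.288) did not pass the threshold (edgeR adjusted p 0.131; 46.2% of genes called). Below granule neurons, the interneuron label Pvalb-Nefh had 2.22, 1.91 and 1.99 CPM, with a log2 fold change of -1.49 (SE 0.331, edgeR adjusted p 0.000579; 35.3% of genes called). For the labels Slc17a6.Nrgn, Pvalb-Cadm1, Pvalb-Chrm2 and Pvalb-Rab3b the log2 fold changes of 0.15, -0.38, -0.73 and -0.72 against granule neurons did not pass the threshold (edgeR adjusted p 0.678, 0.559, 0.144 and 0.234; 49.4%, 29.1%, 43.4% and 25.9% of genes called). Endothelial_Tip.Dcn.Nnat was at 0 in each mouse and lay below granule neurons (edgeR adjusted p 5.31e-05; 47.4% of genes called), and no fitted fold is given for a label at 0.

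**Figure D3:**
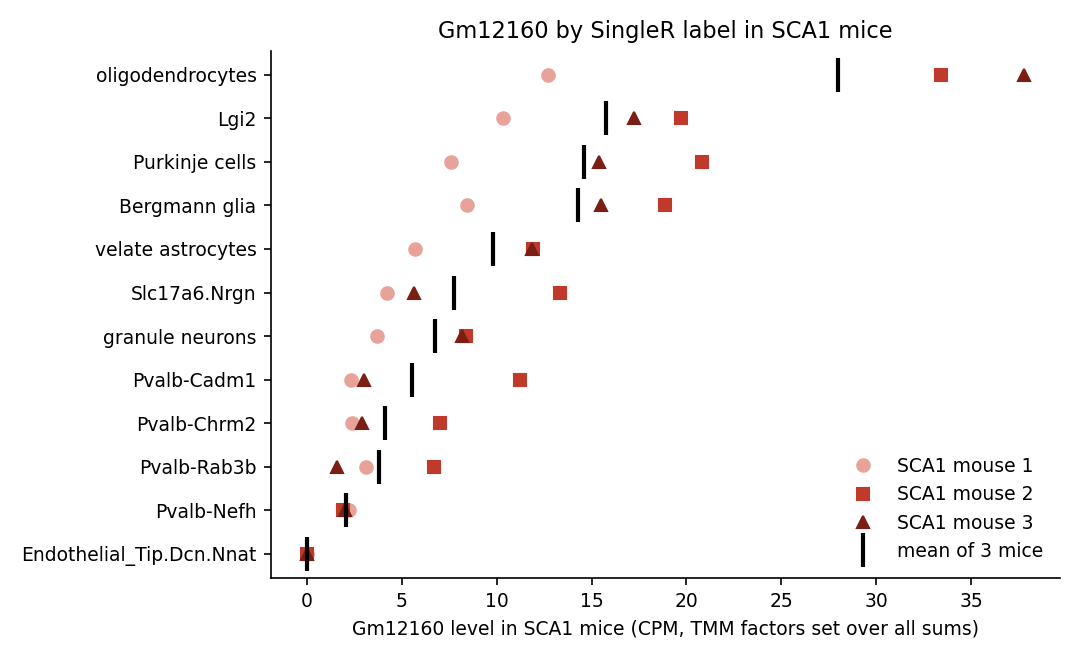
Gm12160 level by SingleR label in SCA1 mice (CPM, TMM factors set over all sums), in order of the mean of 3 mice, with 1 point per mouse. OL lead with a mean of 28.0 CPM, Endothelial_Tip.Dcn.Nnat is at 0 in all mice, and SCA1 mouse 1 is the lowest point in 9 of the 11 labels with UMIs.

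The order of the means was OL, Lgi2, PCs, BG, VA, Slc17a6.Nrgn, granule neurons, Pvalb-Cadm1, Pvalb-Chrm2, Pvalb-Rab3b, Pvalb-Nefh and Endothelial_Tip.Dcn.Nnat. The pairs below were picked from this order, which these same levels set, and the adjustment runs over genes and not over pairs of labels. Their p are thus descriptions. Among neighbours in this order, OL exceeded Lgi2 by a log2 fold change of 0.72 (SE 0.295, edgeR adjusted p 0.0467; 46.2% of genes called). None of the next 9 pairs of neighbours passed the threshold, from Lgi2 against PCs (edgeR adjusted p 0.705) to Pvalb-Rab3b against Pvalb-Nefh (edgeR adjusted p 0.928). In these 9 comparisons, in the order given, 30%, 50.4%, 9.9%, 49.5%, 49.4%, 29.1%, 15.6%, 18.5% and 0.247% of genes were called. The last pair, Pvalb-Nefh against Endothelial_Tip.Dcn.Nnat, had an edgeR adjusted p of 0.0179 (44% of genes called), but the 0 UMIs of Endothelial_Tip.Dcn.Nnat allow up to 2.07 CPM against 2.12 CPM in Pvalb-Nefh, both without TMM factors, so that these labels could not be put in order at this depth. PCs and BG differed by a log2 fold change of -0.0042 (SE 0.295, edgeR adjusted p 0.996). OL exceeded PCs by 0.92 (SE 0.284, edgeR adjusted p 0.00707; 52.1% of genes called), BG by 0.92 (SE 0.271, edgeR adjusted p 0.00807; 32.5% called) and VA by 1.47 (SE 0.295, edgeR adjusted p 0.000162; 33.7% called) on the log2 scale. OL had the highest level of the labels tested, although with 781 nuclei they held only 136 of the 1241 SCA1 UMIs, against 782 in granule neurons.

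Depth per nucleus did not have the same order as the level. The median SCA1 nucleus held 6485 UMIs in OL, 5965 in granule neurons, 8411 in BG, 23434 in Lgi2 and 35708.5 in PCs. The share of SCA1 nuclei with a Gm12160 UMI was 15% in OL (117 of 781, exact interval 12.5 to 17.7%), 27.8% in Lgi2 (37 of 133, 20.4 to 36.3%), 26.7% in PCs (39 of 146, 19.7 to 34.7%), 9.34% in BG (65 of 696, 7.28 to 11.7%) and 3.65% in granule neurons (749 of 20499, 3.40 to 3.92%). Lgi2 and PCs thus had higher shares of nuclei with a UMI than OL, and their intervals overlapped each other, while OL had the higher level. The intervals pool the nuclei of 3 mice and do not cover the spread between mice. In PCs the share was 21.5%, 23.1% and 44.8% in SCA1 mice 1, 2 and 3. Thinned to 3000 UMIs, the share was 8.22% in OL, 3.97% in BG, 3.03% in Lgi2 (4 of 132 nuclei), 2.14% in VA, 1.78% in granule neurons and 1.39% in PCs, where 2 of 144 nuclei kept a UMI. The excess of PCs over granule neurons was thus not seen in thinned nuclei, where so few PC nuclei kept a UMI that no direction can be read.

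Not every label held Gm12160. In SCA1 mice 11 labels had 0 UMIs, in 380 nuclei in all, which is a description, since the labels were put together for their 0. They included all 7 vascular and meningeal labels with 252 nuclei, where a count of 0 allows up to 1.32 CPM, 75 microglia, where it allows 7.27 CPM, and 45 choroid plexus nuclei, where it allows 4.97 CPM. On the same scale, without TMM factors, granule neurons of SCA1 mice stood at 5.69 CPM and OL at 23.6 CPM. A difference of microglia from granule neurons was thus not detectable at this depth, and the limit for the choroid plexus lay close to the granule level. The median nucleus held 7328.5 UMIs in vascular and meningeal labels, 5177 in microglia and 11543 in the choroid plexus, against 5965 in granule neurons. For the label Endothelial_Tip.Dcn.Nnat alone, with 144 nuclei, granule neurons were at least 2.76-fold higher.

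Since the transgene is expressed in PCs, PC nuclei of SCA1 mice were split by whether they held a human *ATXN1* UMI. Gm12160 was counted 7, 9 and 7 times in the 31 *hATXN1*+ nuclei and 9, 9 and 11 times in the 115 *hATXN1*- nuclei of SCA1 mice 1, 2 and 3. As CPM these were 14.2, 24.9 and 10.5 against 4.23, 12.4 and 12.4, so that the level was higher in *hATXN1*+ nuclei in 2 of 3 mice and the classes overlapped. The gene did not pass the filter on low counts, and the comparison, in which 1.47% of 7818 genes were called, has no test of it. Without the filter the log2 fold change was 0.79 (SE 0.486, edgeR unadjusted p 0.102, adjusted p 0.985). A Gm12160 UMI was present in 58.1% of *hATXN1*+ nuclei (18 of 31, exact interval 39.1 to 75.5%) and in 18.3% of *hATXN1*- nuclei (21 of 115, 11.7 to 26.5%). These intervals pool the nuclei of 3 mice and cover counting error only. By mouse, the share was 50%, 70% and 54.5% in *hATXN1*+ and 16.4%, 11.9% and 38.9% in *hATXN1*- nuclei of SCA1 mice 1, 2 and 3. The exact intervals of the classes overlapped in SCA1 mice 1 and 3 and not in SCA1 mouse 2. The median nucleus held 48164 UMIs in *hATXN1*+ and 32295 in *hATXN1*- PCs. By mouse the medians were close in SCA1 mouse 1, with 41307 against 37282 UMIs, and in SCA1 mouse 3, with 58288 against 56243.5, and far apart in SCA1 mouse 2, with 34274.5 against 7287.5. The part of depth in the difference of shares was not tested. Thinned to 3000 UMIs, 1 of 31 and 1 of 113 nuclei kept a UMI, too few to compare.

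**Figure D4:**
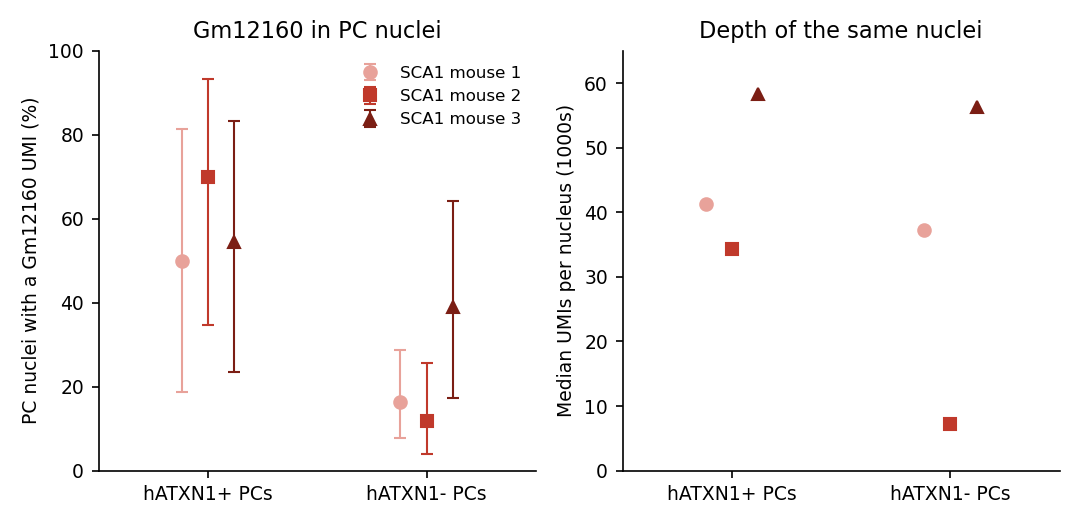
Left, share of PC nuclei with a Gm12160 UMI (%) in *hATXN1*+ and *hATXN1*- PCs of each SCA1 mouse, with 95% exact binomial intervals. Right, the median UMIs per nucleus (in units of 1000) of the same nuclei. The share is higher in *hATXN1*+ PCs in each mouse, where the nuclei are also deeper, most of all in SCA1 mouse 2.

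To see whether the difference between genotypes extended to the genes around Gm12160, those within 1 Mb on chromosome 11 were tested for genotype with batch as a term. The annotation places 34 other genes there, of which 20 were in the count tables and 13 passed the filter on low counts in all nuclei. Gm38087, which overlaps Gm12160 on the opposite strand, is not among the genes counted. Of the 13 neighbours 0 were called by edgeR at an adjusted p of 0.05, and 0 had an unadjusted p under 0.05. DESeq2 called 0 of the 13 too, while it called 17 of 19624 other genes (0.0866%). With the replicate block in place of batch 0 of the 13 were called and 0.127% of the other genes. With batch, over all 19625 genes 0.0051% were called, a single gene, which is Gm12160 and was chosen on this contrast, so that its call is no test. All 13 neighbours overlapped between genotypes, against 3.75% of genes whose mice did not overlap. Their log2 fold changes ran from -0.27 to 0.43, with a median of -0.04, while the median over all genes was near 0. For comparison with the 0 neighbours in which every SCA1 mouse lay above every WT mouse, 1.92% of all genes did so.

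The nearest tested gene before Gm12160 is *Ebf1*, which encodes a transcription factor of B cells and neurons and ends 152.852 kb upstream. Its level was 399.9, 335.5 and 496.4 CPM in SCA1 mice 1, 2 and 3 and 362.8, 408.2 and 494.4 CPM in the WT mice, with a log2 fold change of -0.04 (SE 0.222, edgeR adjusted p 1.000). All WT values lay within the range of the SCA1 values. The nearest tested gene after it is *Clint1*, which encodes an adaptor of clathrin-coated vesicles and starts 638.395 kb downstream. It stood at 71.7, 64.1 and 87.3 CPM in SCA1 and 68.3, 70.9 and 90.7 CPM in WT mice (log2 fold change -0.04, SE 0.178, edgeR adjusted p 1.000). *Cyfip2*, a subunit of the WAVE actin-regulating complex 980.194 kb away, was among the 3 neighbours of highest level, with 202.4, 142.0 and 177.8 CPM in SCA1 and 236.7, 183.7 and 207.5 CPM in WT mice (log2 fold change -0.27, SE 0.167, edgeR adjusted p 1.000). None of the 3 passed the threshold. *Cyfip2* was lower in SCA1 in each same-numbered pair of mice and in each of the 13 alternatives run, with log2 fold changes from -0.35 to -0.19 and an edgeR adjusted p of 0.569 with the replicate block, while the sign of *Ebf1* and *Clint1* turned with a mouse left out.

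Closer to Gm12160 lie the lincRNA genes Gm12159, 44.015 kb upstream, and Gm12162, 195.386 kb downstream, both on the opposite strand and under the filter on low counts. Gm12159 was counted 1, 4 and 4 times in SCA1 mice 1, 2 and 3 and 3, 0 and 1 times in WT mice. Gm12162 was counted 4, 1 and 2 times in SCA1 and 4, 0 and 0 times in WT mice. Without the filter the log2 fold changes were 0.47 (SE 1.09) for Gm12159 and 0.66 (SE 1.11) for Gm12162, and neither was called (edgeR adjusted p 1.000 for both).

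**Figure D5:**
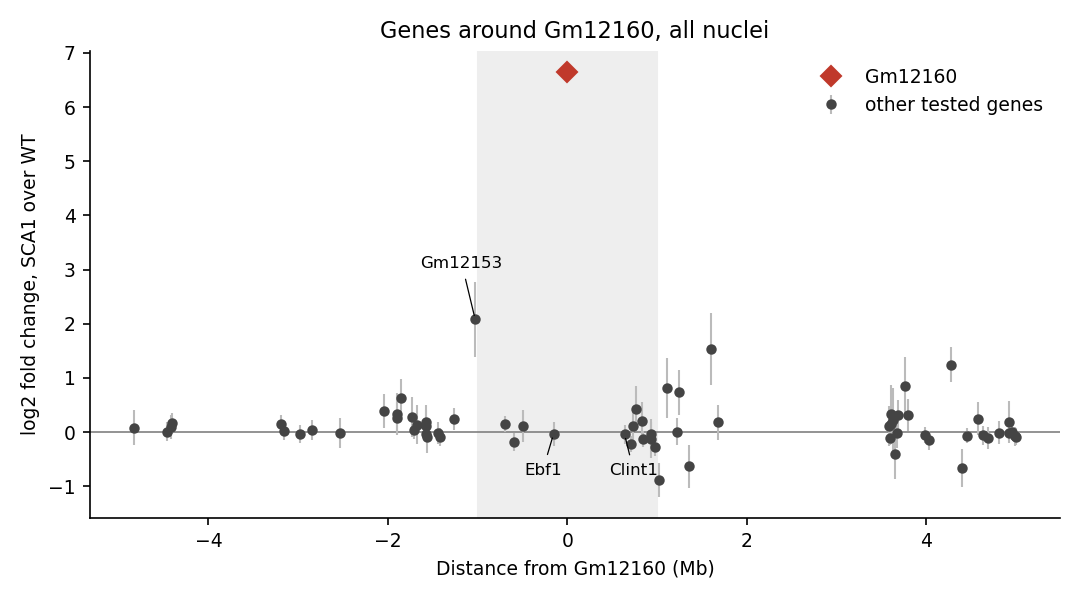
Log2 fold change of SCA1 over WT in all nuclei for tested genes within 5 Mb of Gm12160, against their distance from it (Mb), with the SE as bars. The grey band marks 1 Mb to each side. Gm12160, which was chosen on this contrast and is drawn without an error, stands at 6.65, while the 13 neighbours in the band run from -0.27 to 0.43.

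In single cell types the count of neighbours called was likewise 0 by edgeR and by DESeq2. DESeq2 called 0.0736% of the genes other than Gm12160 in granule neurons, 0.672% in PCs, 0.00902% in BG and 0% in both VA and OL. In granule neurons 11 neighbours were tested, of which 0 had an unadjusted p under 0.05 and 0.00566% of all genes were called, again Gm12160 alone. All 11 overlapped between genotypes there, while 1.55% of all genes lay above and 1.52% below. In BG 5 were tested, 0 with an unadjusted p under 0.05, and in OL 7, again 0, where 0% and 0.00917% of all genes were called, the latter also Gm12160 alone. Gm12160 was chosen on this contrast, so that its calls in granule neurons and OL are no test. In BG it passed the filter on low counts and was not called, and in PCs and VA it did not pass the filter. In VA 5 neighbours were tested, and *Ebf1* had the only unadjusted p under 0.05 (log2 fold change 0.75, SE 0.294, edgeR adjusted p 1.000), with 0% of all genes called. Its levels there were 90.8, 70.2 and 56.2 CPM in SCA1 and 65.4, 43.2 and 19.9 CPM in WT mice, which overlapped, although SCA1 was higher in each same-numbered pair. For *Clint1* every SCA1 mouse lay above every WT mouse in VA, as in 2.43% of all genes there, with 72.6, 77.3 and 109.1 CPM against 66.3, 64.9 and 71.5 CPM (log2 fold change 0.30, SE 0.243, edgeR adjusted p 1.000).

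In PCs 8 neighbours were tested and 4 had an unadjusted p under 0.05, while 653 of 9821 genes did in all, and edgeR called 0% of genes. This count was 1 with DESeq2, 2 with library sizes without factors and 3 with RLE factors. It was 1 or 2 with a mouse left out and stayed at 4 with the replicate block. For 3 of the 8 every SCA1 mouse lay below every WT mouse, against 4.94% of all genes in PCs. These 3 were chosen after their values were seen. *Adam19*, a membrane metalloprotease gene, stood at 23.0, 15.2 and 25.1 CPM in SCA1 and 32.6, 52.3 and 40.1 CPM in WT mice (log2 fold change -0.92, SE 0.289, edgeR adjusted p 0.454). *Lsm11*, which acts in the processing of histone messenger RNAs, stood at 18.0, 11.8 and 24.5 against 27.4, 44.7 and 26.8 CPM (log2 fold change -0.81, SE 0.329, edgeR adjusted p 0.661). *Cyfip2* stood at 118.1, 92.1 and 107.5 against 149.9, 120.005 and 169.9 CPM (log2 fold change -0.48, SE 0.207, edgeR adjusted p 0.717). The fourth was Gm12158, an RNA antisense to *Ebf1*, at 20.2, 58.3 and 71.8 CPM in SCA1 and 12.5, 44.7 and 50.4 CPM in WT mice, where the genotypes overlapped, SCA1 was higher in each same-numbered pair and the mice of batch 1 were the lowest of each genotype (log2 fold change 0.52, SE 0.234, edgeR adjusted p 0.747). With a block for the replicate number instead of batch, 0 of the 8 were called, while 172 of 9821 genes (1.75%) were.

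The genes most like Gm12160 were sought over 30 sums, which are 6 mice in 5 cell types, by Pearson's r of log2(CPM + 1) among 19624 genes. The highest were *Anxa10*, an annexin gene, with r = 0.73, Gm26513 with 0.71, *Rapsn*, which clusters acetylcholine receptors at the muscle synapse, with 0.65, 6030498E09Rik with 0.65 and Gm2582 with 0.64. These are descriptions, since sums of a mouse share a library and the 5 genes have 90 to 828 UMIs in all. The sums hold both genotypes, so that r also reflects the difference between genotypes on which Gm12160 was chosen. The lists of highest r and of highest ratio are thus not independent. *Anxa10*, which was also among the 5 genes of highest ratio between genotypes, stood at 2.92, 4.64 and 2.65 CPM in SCA1 and 1.36, 1.23 and 1.17 CPM in WT mice over all nuclei. 6030498E09Rik stood at 1.10, 2.65 and 0.823 against 0.477, 0.307 and 0.117 CPM, so that the genotypes did not overlap in these genes. They did overlap in the other three. Gm26513 stood at 0.145, 0.434 and 0.462 CPM in SCA1 and 0.149, 0.563 and 0.274 CPM in WT mice, *Rapsn* at 0.493, 0.274 and 0.221 against 0.258, 0.358 and 0.117 CPM, and Gm2582 at 0.658, 1.55 and 0.864 against 0.516, 0.665 and 0.470 CPM. None of the 5 lies on chromosome 11.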

How the data were processed

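The authors deposited, for each mouse, whole-number UMI counts per gene and nucleus, which were not normalized, with a Seurat cluster and a SingleR label for each nucleus. They had aligned the reads with Cell Ranger to mm10 with human *ATXN1* added, counting introns, and removed debris with DIEM, at a minimum of 1000 UMIs, or 3000 for the libraries of 1 run. A higher minimum keeps deeper nuclei. The submitters' processing notes also name Cell Ranger 4.0.0 and 6.0.1 beside 5.0.1, R 4.1.0 and Seurat 4.0.4.

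Counts were summed per mouse and label, since nuclei of a mouse are not replicates, and fitted in edgeR 4.0.16 under R 4.3.3 (quasi-likelihood test, TMM). Genes had to pass filterByExpr, with 10 as its minimum count and 15 as its minimum total, and p had Benjamini-Hochberg adjustment at 0.05. Genotype was tested with batch as a term. Batch is not given per mouse in the sources used here and was taken from the 2 ranges of library numbers that the labels give. Mice are separate animals. The paper's limma-trend test on single nuclei was not run, because it takes nuclei as replicates. Same-numbered SCA1 and WT mice deviated together over 19625 genes (r = 0.83, 0.31 and 0.76 for numbers 1, 2 and 3), and the replicate block pairs mice by number. For mice of unlike number r ran from -0.80 to 0.21, the latter for SCA1 mouse 3 and WT mouse 2. The labels number the mice but do not pair them, so that the pairs rest on the numbers and on these same data. Gene positions are from GENCODE vM21 on GRCm38, matched by symbol for 31432 of 32286 genes. The transcript's sequence is not reported here.

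Gm12160, its neighbours and the rules were chosen with earlier results of these data known. Named are Gm12160, human *ATXN1*, overlapping genes, the nearest tested gene to each side, the 3 neighbours of highest level, the 5 genes of highest correlation and the 5 of highest ratio in each direction. *Xist*, *Ddx3y* and the nearest lincRNA gene to each side are named too. So are neighbours with an unadjusted p under 0.05 or no overlap in a cell type, and genes without overlap between 1 and 5 Mb. Tried as alternatives were library sizes without factors, RLE factors, DESeq2 1.42.0, no filter, no batch term, the replicate block, nuclei of at least 3000 UMIs, thinning, labels that match the cluster's main label, a window of 5 Mb and each mouse left out. Further software was matplotlib 3.10.9, pandas 2.3.3, scipy 1.17.1 and numpy 2.4.6 under Python 3.11.15, and limma 3.58.1. No doublet caller was run. edgeR was tested on simulated data before use.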

Additional observations from a re-analysis of the deposited data

How the results depend on the processing

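In 136 of 137 alternative values, the direction and the side of the threshold, or the level within 1 SD, were as reported. Most of these values are counts of neighbours called, and others are genotype levels of Gm12160, on which it was chosen. Between cell types, alternatives were run only for OL, BG, PCs and VA against granule neurons. The comparisons of OL with Lgi2, PCs, BG and VA, and of Lgi2 and Pvalb-Nefh with granule neurons, have none. A further 39 values are for *Ebf1*, *Clint1* and *Cyfip2*, of which 4 changed sign. The exception among the 137 is the mean WT level of Gm12160, which was 0.0431 CPM in nuclei of at least 3000 UMIs against 0.0597 CPM over all nuclei. The mean SCA1 level ran from 6.17 to 8.67 CPM, both with a mouse left out. No neighbour was called under any alternative run, with a mouse left out and with 5 Mb included, and with the replicate block in place of batch the count was 0 in each of the 6 groups of nuclei. Most of these fits called few or no genes besides Gm12160, from 0 of 19624 over all nuclei with RLE factors to 222 of 21376 in PCs without the filter. A count of 0 among so few neighbours thus says little about them. The pairing changed no call of a neighbour, although over all nuclei it raised the genes called besides Gm12160 from 0 to 25. OL against granule neurons ran from 1.87 to 2.12 on the log2 scale, BG from 0.95 to 1.22 and PCs from 0.76 to 1.23, all past the threshold, with a highest adjusted p of 0.0439 for PCs. Thinning has no such test, and the share of nuclei with a UMI was then 1.39% in PCs and 1.78% in granule neurons. VA ran from 0.39 to 0.69 and never passed it (adjusted p 0.0554 to 0.490). With a mouse left out, the log2 fold change ran from -0.17 to 0.13 for *Ebf1* and from -0.15 to 0.0841 for *Clint1*, and the sign of both turned without SCA1 replicate 2 (0.13 and 0.0841) and without WT replicate 3 (0.0674 and 0.0771). The comparison of PC classes by human *ATXN1* has a value only without the filter, 0.79.

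With 8 UMIs in 20527 WT nuclei no order of cell types can be read in WT mice. The batch of each mouse was inferred, and batch 1 holds 1 mouse of each genotype. The study has 3 mice per genotype and 1 transgenic line, so that effects of the transgene and of other differences carried with the line cannot be told apart.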

Other observations

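Beyond 1 Mb, between 1 and 5 Mb from Gm12160, 55 genes were tested over all nuclei, and 0 were called by edgeR, with 3 at an unadjusted p under 0.05. All SCA1 mice lay above all WT mice in 5 of the 55 (9.09%, against 1.92% over all genes) and below them in 1 (1.82%, against 1.83%). In granule neurons 0 of 43 genes in the same range lay above and 1 below. These genes were chosen after their values were seen, and the count was not tested. The lincRNA gene Gm12153, 1.03 Mb before Gm12160, was counted 50, 62 and 68 times in SCA1 mice 1, 2 and 3 and 33, 4 and 1 times in the WT mice. As CPM these are 0.484, 1.42 and 1.37 against 0.328, 0.205 and 0.0392, so that the batch 1 mice were close to each other and the rest far apart (log2 fold change 2.08, SE 0.688, edgeR adjusted p 1.000). *Timd4*, a phosphatidylserine receptor gene 1.597 Mb after Gm12160, was counted 25, 17 and 14 times in SCA1 and 15, 2 and 0 times in WT mice. As CPM these are 0.242, 0.388 and 0.281 against 0.149, 0.102 and 0. *Havcr2*, which encodes the immune receptor TIM-3 and lies 1.24 Mb after, was counted 72, 46 and 46 times against 70, 11 and 7 times. In CPM it stood at 0.696, 1.05 and 0.924 against 0.695, 0.563 and 0.274, so that the batch 1 mice were nearly equal. The others above, Gm12147 and Gm12185, had 24, 13 and 19 against 17, 4 and 5 UMIs, and 71, 36 and 34 against 59, 11 and 15 UMIs. In CPM, Gm12147 stood at 0.232, 0.297 and 0.382 against 0.169, 0.205 and 0.196. Gm12185 stood at 0.687, 0.823 and 0.683 against 0.586, 0.563 and 0.587 CPM. The WT libraries of mice 2 and 3 were the smallest, so that UMIs alone overstate these gaps. The gene below was *Fndc9*, at 44.8, 59.7 and 48.4 CPM in SCA1 and 75.5, 144.9 and 61.9 CPM in WT mice (log2 fold change -0.88, SE 0.313, edgeR adjusted p 1.000). On the rest of chromosome 11, beyond 20 Mb, 1.70% of 1117 genes lay above and 3.04% below.

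Among 3798 tested genes annotated as long noncoding RNAs other than Gm12160, all SCA1 mice lay above all WT mice in 118 (3.11%) and below them in 57 (1.50%) over all nuclei, against 1.92% and 1.83% of all genes. In granule neurons alone the shares were 2.63% and 1.40% of 2923 genes, against 1.55% and 1.52% of all genes. None of them was called by edgeR in all nuclei or in granule neurons, where 122 and 87 had an unadjusted p under 0.05, as did 384 of 19624 and 312 of 17655 genes of all kinds other than Gm12160.

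Nuclei with a Gm12160 UMI were deeper than those without in granule neurons of each SCA1 mouse, with medians of 7385, 4754.5 and 6347 UMIs against 6703, 4218 and 5987. The same held in OL, with 7575, 6051.5 and 8079 UMIs against 7117, 4626.5 and 6611, and in PCs, with 42248.5, 40906 and 61437 against 36067, 7071 and 48949.5. It did not hold in every mouse in VA, with 7810.5, 7259.5 and 7544.5 against 8607, 5437 and 7820, or in BG, with 9968, 6028 and 12022.5 against 8931, 6124 and 9146.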
